A study of Mus musculus with 2 samples.

Results

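The collagen gene family was followed in single cells of mouse ear skin. Every gene whose symbol reads Col, a type number, the letter a and a chain number was taken, which gave 44 of the 27998 genes in the count tables. The choice used names only, so no measured value selected a member. Ear skin came from male ICR mice of 7 to 8 weeks. The control sample was 1 library. The allergic contact dermatitis (ACD) sample was also 1 library: the hapten 2,4-dinitrofluorobenzene (DNFB) was painted on the back (25 µL at 1.0%) to sensitize the animals, and on day 6 the ears were challenged with 20 µL at 0.2% and taken 60 hr later. ICR is an outbred stock, and the labels do not say how many ears were pooled. Skin was digested with collagenase D before droplet capture, so cells that stay bound in dense matrix may be missing from both libraries. The comparison asked how collagen transcripts were spread over the cells of the ear and how their levels differed between ACD and control ear skin. With 1 library per condition no difference was tested, and every interval below covers counting error only.

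Collagens are proteins whose chains wind in sets of 3 into a stiff triple helix. Fibrillar collagens (types I, II, III, V, XI, XXIV and XXVII) form the cables of dermis and cartilage, and fibril-associated collagens with interrupted helices (FACITs) decorate these cables. Type IV forms the sheet-like network of basement membranes under epithelium and around vessels, type VI forms beaded filaments around cells, and types VIII and X form short-chain networks. Types XV and XVIII (multiplexins) sit in basement membrane zones, type XVII spans the membrane of basal keratinocytes, and type VII anchors the epidermis to the dermis. Dermal fibroblasts are the main makers of types I and III, whereas chondrocytes are known for types II, IX and XI, and for type X once they mature towards hypertrophy.

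The control library held 12895 barcodes and 99037698 unique molecular identifiers (UMIs, 1 tag per captured molecule), and the ACD library held 13163 barcodes and 126566870 UMIs. Of these, 12213 and 11665 cells were kept, those with more than 200 and fewer than 5000 genes, no more than 25000 UMIs and a mitochondrial share of UMIs below 8%, with median UMI counts of 6850 and 7447. A set of 50 barcode sequences occurred in both libraries, 47 of them among kept cells. Cells were grouped by expression with all collagen and collagen-pathway genes left out, and groups were called X-like from marker genes that include no collagen. A level is given as UMIs of a gene per 1000000 UMIs of the cells in question. Because a 3′ tag is counted once per molecule, levels were compared between genes without division by length. T/NK/ILC-like lymphocytes, which do not make fibrillar collagen, served as the background. Collagens took 0.220% of their UMIs in control and 0.0713% in ACD, and 12 of the 25 members with enough UMIs there were lower by 1.5-fold, where 7.26% of all genes were. This background is not free RNA alone: 12 of the 864 control cells, with UMIs of at least 5 of 8 fibroblast markers, held 60.3% of the collagen UMIs, and 33 of the 3428 ACD cells held 45.7%. Without those cells the values were 0.0905% and 0.0397%.

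The 44 collagen genes together took 3.07% of all UMIs in control ear skin and 1.47% in ACD ear skin (log2 ratio of ACD over control -1.07, 95% interval -1.07 to -1.06). This difference over all cells mixes levels within cells with the make-up of the libraries: T/NK/ILC-like cells numbered 864 in control and 3428 in ACD, whereas dFB-like cells (dermal fibroblasts) numbered 3088 and 1191. Col1a2, Col3a1 and Col1a1 held 66.8% of all collagen UMIs. By class, 14 members had their highest level in dFB-like cells, 12 in chondrocyte-like cells, 4 in glia-like, 3 each in pericyte-like, smooth muscle-like and muscle satellite-like cells, 2 in keratinocyte-like cells and 1 each in endothelial-like, mast cell-like and mononuclear phagocyte-like cells. The last pair are Col19a1, whose highest level rests on 1 UMI, and Col6a4, whose highest level rests on 6 UMIs.

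**Figure D1:**
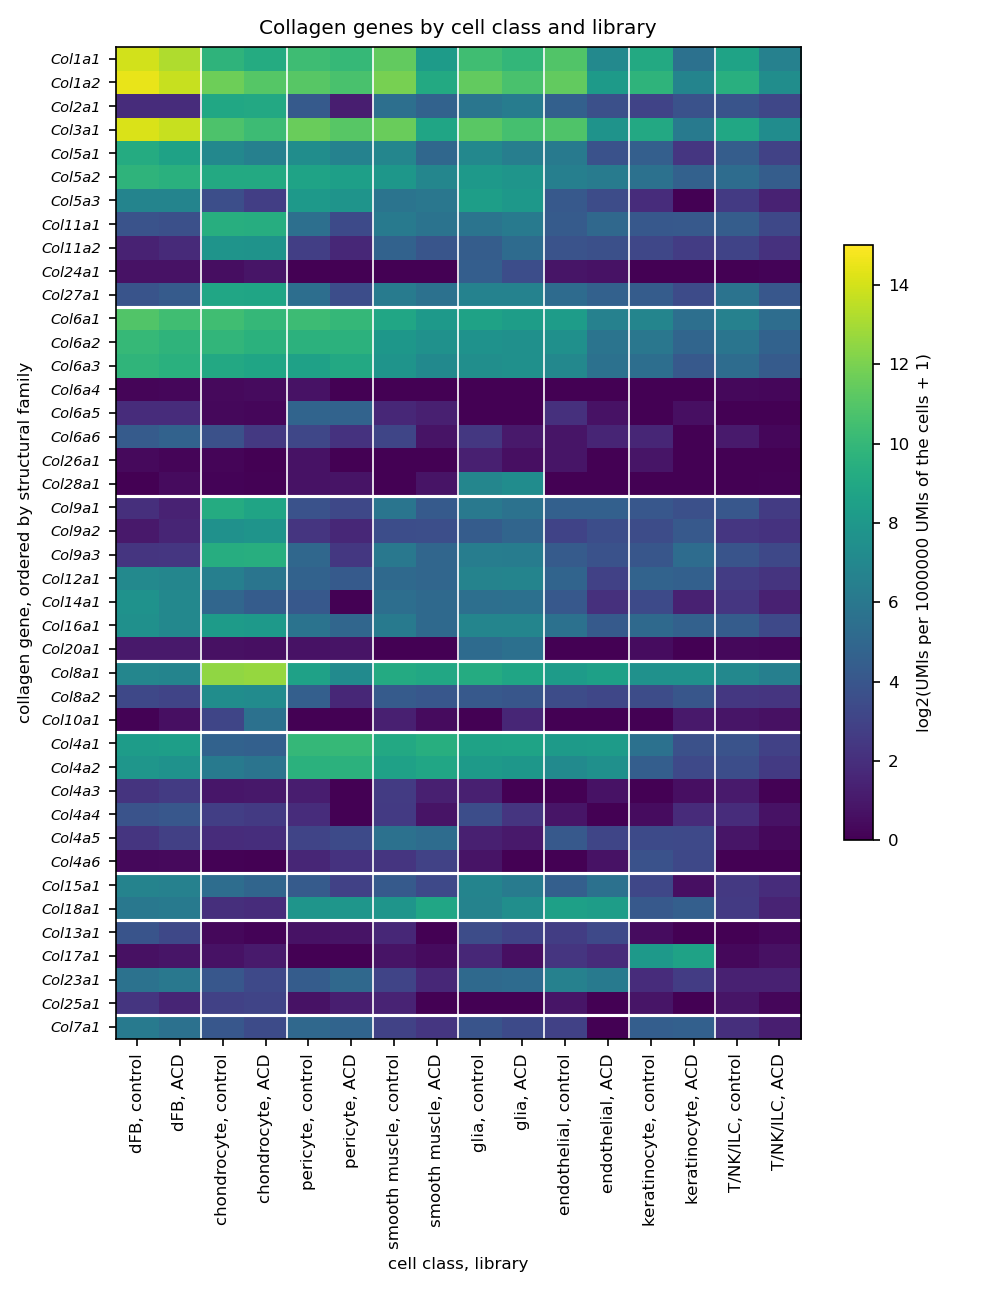
Heat map of log2(UMIs per 1000000 UMIs + 1) for the 42 collagen genes with at least 50 UMIs (rows, grouped by structural family and parted by white lines) in 7 cell classes and in T/NK/ILC-like cells, with control and ACD side by side (columns). The fibrillar rows Col1a1, Col1a2 and Col3a1 are brightest in dFB-like cells, Col8a1 in chondrocyte-like cells, Col4a1 and Col4a2 in pericyte-like cells and Col17a1 in keratinocyte-like cells.

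Among the fibrillar chains, the partners of type I gave 869604 control and 355203 ACD UMIs for Col1a2, and 524877 and 210348 for Col1a1. Col3a1, the homotrimer that runs with type I in soft tissue, gave 625211 and 281747. These genes were highest in dFB-like cells, at 19757, 13604 and 16635 UMIs per 1000000 over both libraries. Type V chains regulate fibril diameter, and gave 52172 and 36928 UMIs for Col5a2, 24308 and 11312 for Col5a1, and 5165 and 3446 for Col5a3. Col5a3 stood apart from its partners, with its highest level in glia-like cells (289). The cartilage fibril chain Col2a1 gave 18355 and 17030 UMIs. Its partner chains of type XI gave 28550 and 23941 for Col11a1, and 8350 and 6789 for Col11a2. Col27a1, a fibrillar chain of cartilage, gave 18588 and 15234, and all of these were highest in chondrocyte-like cells. Col24a1, with 196 and 221 UMIs, was highest in glia-like cells at 15.2.

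The type VI chains of the beaded filament, Col6a1, Col6a2 and Col6a3, were expressed in dFB-like, chondrocyte-like and pericyte-like cells. In pericyte-like cells Col6a1 was at 1240 in control and 1033 in ACD, Col6a2 at 791 and 787, and Col6a3 at 385 and 522. In all, Col6a1 gave 122814 UMIs in control and 69103 in ACD, Col6a2 gave 74254 and 47140, and Col6a3 gave 50408 and 30916. The later type VI chains were rarer: Col6a6 gave 1453 and 889 UMIs, Col6a5 144 and 91, and Col6a4 20 and 32. Col6a5 was highest in pericyte-like cells (27.0, against 2.71 in dFB-like cells, the next class). Col28a1, a type known from nerves, gave 175 and 327 UMIs, 93.4% of them in glia-like cells. Col26a1 gave 75 and 55.

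The basement membrane chains Col4a1 (15911 and 12890 UMIs) and Col4a2 (13748 and 9865) were highest in pericyte-like cells, at 1039 and 780, and next in smooth muscle-like cells, at 610.0 and 424. The minor chains of type IV gave 733 and 496 UMIs for Col4a4, 420 and 354 for Col4a5, 178 and 124 for Col4a3, and 58 and 48 for Col4a6. Col4a5 was highest in smooth muscle-like cells (43.5) and Col4a6 in keratinocyte-like cells (10.9). In the multiplexins, Col15a1 gave 5685 and 3636 UMIs and Col18a1 gave 3991 and 4295. Col18a1, which carries the endostatin fragment, was about level in smooth muscle-like (349) and endothelial-like cells (344).

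The short-chain network was dominated by Col8a1, with 256558 control and 240072 ACD UMIs, 76.2% of them in chondrocyte-like cells. Its partner Col8a2 gave 8391 and 7169 UMIs. Col10a1, the collagen of hypertrophic cartilage, gave 279 UMIs in control and 1388 in ACD. It was the only one of the 42 members with at least 50 UMIs that was higher in ACD by 1.5-fold over all kept cells, where 4.32% of all genes were.

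Of the FACITs, the type IX chains Col9a1 (22491 and 13290 UMIs), Col9a2 (7142 and 6840) and Col9a3 (24049 and 20523) had about 90% of their UMIs in chondrocyte-like cells: 89.9%, 89.9% and 90.4%. Col16a1 gave 22062 and 15560 UMIs, Col12a1 9156 and 5195, and Col14a1 7464 and 3170. Types XII and XIV bind the surface of type I fibrils and were highest in dFB-like cells. Col20a1 gave 115 and 133 UMIs, with its highest level in glia-like cells (42.7). Col19a1 (27 and 18) and Col22a1 (24 and 16) were the 2 members under 50 UMIs in all. The transmembrane collagens gave 2463 and 1904 UMIs for Col23a1, 740 and 864 for Col17a1, 548 and 268 for Col13a1, and 410 and 260 for Col25a1. Col7a1, the anchoring fibril, gave 3348 and 2007, and was highest in dFB-like cells (62.3).

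Members that were alike in their distribution followed the types. Over 26 points (13 cell classes in each of the 2 libraries) the log2 level of Col1a1 was most like that of Col1a2 (Pearson r = 0.98), Col3a1 (0.94) and Col5a1 (0.89). Col4a1 was most like Col4a2 (0.97), Col18a1 (0.87) and Col5a3 (0.80). Col2a1 was most like Col9a3 (0.97), Col9a1 (0.96) and Col27a1 (0.95). These values are descriptions: points of 1 library share its depth and its free RNA.

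The 8 fibroblast markers that named the dFB-like cells summed to 27466 UMIs per 1000000 in control and 24766 in ACD, against 10048 and 9664 in chondrocyte-like cells and less in the other classes measured. In dFB-like cells collagens took 6.44% of UMIs in control and 4.20% in ACD (log2 ratio -0.62, -0.62 to -0.61). The median cell gave 4.13% in control and 2.54% in ACD, while the middle 80% of cells ran from 1.11% to 12.2% and from 0.373% to 8.85%, so the cells of the libraries overlapped widely. The most abundant chain, Col1a2, was at 23152 UMIs per 1000000 in control and 13448 in ACD (log2 ratio -0.78, -0.79 to -0.78). Its partner Col1a1 was at 15779 and 9563 (-0.72, -0.73 to -0.71). Col3a1 was at 18365 and 13420 (-0.45, -0.46 to -0.44). The difference was thus smaller for type III than for type I in these libraries, and the UMI ratio of Col1a1 to Col1a2 was 0.682 in control and 0.711 in ACD.

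For the next members the differences were smaller. Col6a1 was at 1978 in control and 1347 in ACD (-0.55), Col6a2 at 1044 and 853 (-0.29) and Col6a3 at 900.3 and 726 (-0.31). The ratio of Col6a1 to Col6a2 was 1.89 in control and 1.58 in ACD, and that of Col6a3 to Col6a1 was 0.455 and 0.539. Of type V, Col5a2 was at 864 and 742 (-0.22) and Col5a1 at 609 and 402 (-0.60), with a ratio of Col5a1 to Col5a2 of 0.705 and 0.541. The basement membrane chain Col4a1 was at 317 in control and 332 in ACD (0.07, 0.01 to 0.12), and its head-to-head neighbour Col4a2 at 232 and 202 (-0.20). Summed by structure, the 11 fibrillar chains were at 58911 in control and 37719 in ACD (-0.64), the 8 beaded filament chains at 3945 and 2954 (-0.42) and the 6 type IV chains at 571 and 561 (-0.03, -0.07 to 0.01).

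A member is counted as higher or lower here when it had at least 50 UMIs over both libraries and its level, with 10 UMIs per 1000000 added on each side, differed by 1.5-fold. In dFB-like cells 34 members had enough UMIs. Of these, 4 were lower in ACD (Col1a1, Col1a2, Col5a1 and the FACIT Col14a1), where 1.07% of the 11772 genes with enough UMIs were lower. None of the 34 was higher, where 2.11% of all genes were. Col14a1 was at 197 in control and 127 in ACD (-0.63, -0.71 to -0.56). The median log2 ratio, with the 10 UMIs added, was -0.12 over the 34 members and -0.01 over all genes with enough UMIs.

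The dFB-like cells fell into 5 clusters, named here by leading genes. By subtype markers Tnc/Postn and Cyp2f2/Aldh1a1 were called reticular/papillary-like and Pi16/C7 preadipocyte-like. Igfbp3/Inhba and Saa3/Cxcl9 were left unnamed, since the subtype markers did not lead them. These names are loose. In a clustering of cells with at least 500 genes and under 5% mitochondrial UMIs, Lpl was among the leading genes of the cluster with Tnc and Postn. Mfap5 was among those of the cluster with Pi16 and C7. The study used Lpl for preadipocytes and Mfap5 for adipocyte progenitors. Collagen content differed more between these clusters than between the libraries within most of them. Cyp2f2/Aldh1a1 cells gave 9.02% of UMIs as collagen in control and 9.97% in ACD (0.14). Tnc/Postn cells gave 6.49% and 6.35% (-0.03), and Pi16/C7 cells 3.60% and 3.57% (-0.01). Saa3/Cxcl9 cells gave 3.46% and 3.63% (0.07). The Igfbp3/Inhba cells were the exception, with 2.30% in control and 1.02% in ACD (-1.17, -1.1998 to -1.149). Outside the class, the peri-follicular-like Coch/Crabp1 cells gave 1.80% and 1.68% (-0.10), and the Ccl11/Apod cells, called progenitor-like, 2.62% and 1.88% (-0.48). The name progenitor-like is loose too. At a clustering resolution of 0.5 the cluster led by Ccl11 and Apod was left unnamed, and Cldn1 and Krt19 were among its leading genes.

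**Figure D2:**
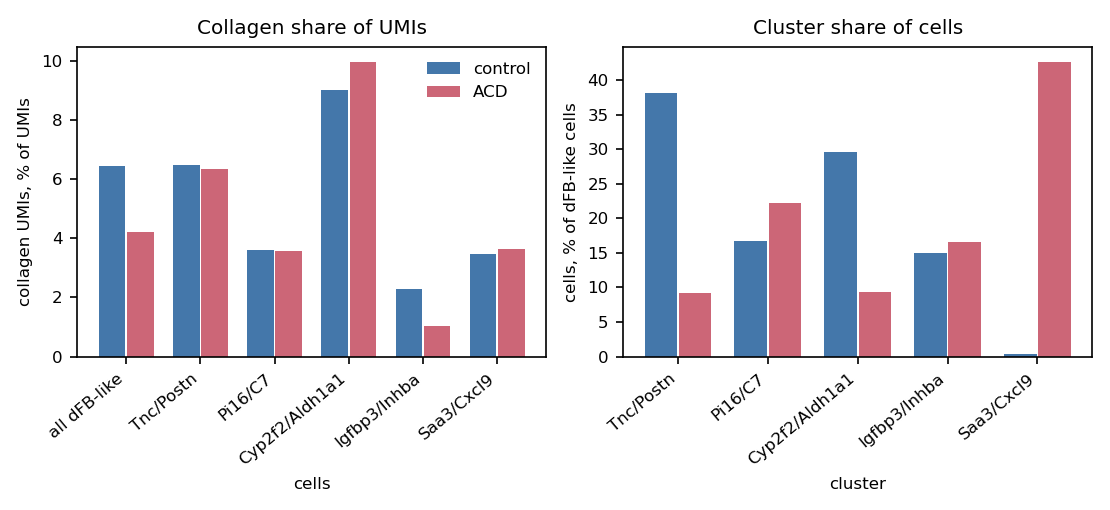
Left, collagen UMIs as a percentage of all UMIs in dFB-like cells and in their 5 clusters, control in blue and ACD in red. Right, the percentage of dFB-like cells in each cluster. The bars of the pooled class differ (6.44% against 4.20%) while those of 4 clusters lie close together and those of Igfbp3/Inhba do not (2.30% against 1.02%). Each bar is 1 library.

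The clusters contributed unequally to the libraries. Tnc/Postn cells made up 38.2% of dFB-like cells in control and 9.24% in ACD, Cyp2f2/Aldh1a1 cells 29.6% and 9.32%, Pi16/C7 cells 16.8% and 22.3%, Igfbp3/Inhba cells 14.99% and 16.5%, and Saa3/Cxcl9 cells 0.421% (13 cells) and 42.7% (508 cells). Saa3 and Cxcl9 themselves differ between the libraries, so a cell may sit in another cluster in ACD than it would have in control, and a cluster held almost wholly by the ACD library cannot be told apart from that library. These shares are therefore weights and not counts of cell types. When the ACD levels of the clusters were weighted by the control shares of UMIs, the summed collagen level was 65495 against 64377 in control (0.02). Under this weighting Col1a1 was at 0.08 on the log2 scale, Col1a2 at -0.07, Col3a1 at 0.13, Col5a1 at -0.16 and Col14a1 at -0.59. With the control levels weighted by the ACD shares instead, the sum differed by 0.01. There Saa3/Cxcl9 had a weight of 52.0%, and its control level came from 13 cells, so this second value adds little. The differences of types I and V were much smaller at the control mix of clusters, and that of Col14a1 was not. At that mix Saa3/Cxcl9 had a weight of 0.571%, although it held 52.0% of the dFB-like UMIs in ACD. The first value thus describes mainly the other clusters, and whether cells moved between clusters was not tested.

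Within clusters the main chains can be followed directly. In Tnc/Postn cells Col1a2 was at 22608 in control and 20897 in ACD, Col3a1 at 19477 and 20065, Col1a1 at 15702 and 15938, Col6a1 at 1803 and 1633, and Col5a2 at 969.5 and 1028. All of these lay within 0.15 of equal on the log2 scale. Of 24 members with enough UMIs, 1 was lower by 1.5-fold, where 1.48% of all genes were: Col14a1, at 249 and 134 (-0.89, -1.13 to -0.66). Col23a1, a transmembrane collagen, was higher, at 14.9 and 35.0 (1.23, 0.70 to 1.73), on 148 and 42 UMIs, 1 of 24 members where 1.48% of all genes were higher.

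In Cyp2f2/Aldh1a1 cells, the cluster with most collagen, Col1a2 was at 33938 and 34970, Col3a1 at 24953 and 29694 (0.25), Col1a1 at 23354 and 26723 (0.19), Col6a1 at 2653 and 2633, and Col6a2 at 1340.0 and 1471. All but Col6a1 among them were somewhat higher in ACD. Of 24 members, 1 was lower by 1.5-fold (Col27a1, on 116 and 7 UMIs), where 2.26% of all genes were. Col23a1 was again higher, at 75.5 and 135 (0.83, 0.59 to 1.07), 1 of 24 members where 1.66% of all genes were.

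In Pi16/C7 cells Col1a2 was at 11942 in control and 10565 in ACD, Col3a1 at 10484 and 11773, Col1a1 at 7360 and 6907, Col6a1 at 1395 and 1241, and Col5a2 at 762 and 944 (0.31). Of 26 members, 3 were lower by 1.5-fold, where 1.57% of all genes were. They were Col8a1, at 364 and 224 (-0.70), Col12a1, at 61.0 and 37.0 (-0.72), and Col6a5, at 17.2 and 7.32 (-1.24). Higher were 2 of 26, where 2.22% of all genes were: Col5a3, at 125 and 200.4 (0.68), and Col4a5, at 13.3 and 25.8 (0.96).

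The Igfbp3/Inhba cells showed lower levels across types. Col1a2 was at 7617 in control and 2793 in ACD (-1.45, -1.50 to -1.40), Col1a1 at 4524 and 1641 (-1.46), and Col3a1 at 5466 and 2340 (-1.22). The beaded filament chains were lower to a lesser degree, Col6a1 at 1300 and 720 (-0.85) and Col6a3 at 685 and 487 (-0.49). Col5a1 was at 248 and 111 (-1.16), and Col14a1 at 68.4 and 12.9 (-2.40, -3.16 to -1.73). In all, 12 of 23 members were lower by 1.5-fold, where 4.28% of all genes were, and none was higher, where 2.07% of all genes were. Depth did not differ much, with median UMI counts of 5702 in control and 5817 in ACD. The median cell gave 1.52% of its UMIs as collagen in control and 0.440% in ACD.

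Saa3/Cxcl9 cells had too few control cells for a comparison of single members. Their ACD cells held Col3a1 at 12076, Col1a2 at 11329 and Col1a1 at 7812. These levels were close to the Pi16/C7 cells of the same library and below the Tnc/Postn and Cyp2f2/Aldh1a1 cells. Col3a1 exceeded Col1a2 in the Saa3/Cxcl9 cells, as it did in the ACD Pi16/C7 cells, whereas Col1a2 was the higher chain in Tnc/Postn and Cyp2f2/Aldh1a1 cells. In Coch/Crabp1 cells Col1a2 was at 6934 and 6625, Col1a1 at 4307 and 4621, Col3a1 at 2964 and 2265, Col6a1 at 817 and 647, and Col5a2 at 440.4 and 426. Here 3 of 24 members were lower by 1.5-fold, where 2.6% of all genes were: Col12a1, at 146 and 49.0 (-1.58), Col14a1, at 14.6 and 2.26 (-2.69), and Col5a3, at 31.0 and 15.6 (-0.995).  In Ccl11/Apod cells (121 and 103 cells) Col3a1 was at 9589 and 5981, Col1a2 at 6819 and 5357, Col1a1 at 3878 and 3047, Col6a1 at 1052 and 589, and Col8a1 at 723 and 346. Past 2-fold there were Col8a1 (-1.06), Col14a1, at 118 and 30.8 (-1.94), and Col2a1, at 24.6 and 107 (2.12). Col14a1 was thus past 1.5-fold lower in Tnc/Postn, Igfbp3/Inhba, Coch/Crabp1 and Ccl11/Apod cells. It was not in Cyp2f2/Aldh1a1 cells, at 141 and 93.7 (-0.59), nor in Pi16/C7 cells, at 314 and 325 (0.05), where the thinned share of cells with a UMI was 34.1% and 34.7%.

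The genes that build, trim and bind collagen were counted in dFB-like cells by list, where 1.07% of all genes were lower and 2.11% higher by 1.5-fold. The values are of the pooled class, and none is given at the control mix of clusters. Of 17 genes of chain synthesis and folding, 16 had enough UMIs and none was past 1.5-fold (median log2 ratio 0.10). The largest ratios in that list were those of the prolyl 4-hydroxylase subunit P4ha3 (31 and 46 UMIs, 1.46), the lysyl hydroxylase Plod2 (5.34 and 9.49, 0.83) and P4ha2 (69.6 and 51.5, -0.43). Of 13 genes of propeptide removal and cross-linking, 11 had enough UMIs, of which 3 were lower and 1 was higher (median -0.24). Pcolce2, an enhancer of procollagen C-proteinase, was at 467 in control and 267 in ACD (-0.81). The lysyl oxidases that cross-link fibrils went both ways, with Loxl1 at 109 and 185 (0.76), Lox at 446 and 274 (-0.70) and Loxl2 at 279 and 181 (-0.63).

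Of 14 fibril-associated proteins, 4 were lower and 1 was higher in dFB-like cells (median -0.21), where 1.07% and 2.11% of all genes were. The higher gene was the small proteoglycan Kera, at 6.82 and 17.4 (1.35). Thbs2 was at 217 and 107 (-1.01), fibronectin Fn1 at 1420 and 856 (-0.73), Aspn at 1267 and 822 (-0.63) and Sparc, a collagen-binding glycoprotein, at 17704 and 11701 (-0.60). Of 14 receptors and degrading enzymes, 10 had enough UMIs, of which 1 was lower and 1 was higher (median -0.17). The collagen receptor chain Itga11 was at 7.48 and 18.0 (1.27), the neutrophil collagenase gene Mmp8 gave 9 and 41 UMIs (3.08), Itga1 was at 4.36 and 6.88 (0.66), and Ctsk, the collagen-degrading cathepsin K, was at 1111 and 709 (-0.65). In chondrocyte-like cells the same lists gave 2 lower genes, Fmod, at 1550 and 867 (-0.84), and Tnxb, at 26.5 and 13.6 (-0.96), and none higher. Of all genes there, 0.216% were lower and 0.672% higher.

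ACD dFB-like cells were also split by Cxcl9, a T cell-attracting chemokine. Collagens were at 37362 UMIs per 1000000 in the 322 cells with a Cxcl9 UMI and at 44360 in the 869 cells without (log2 ratio -0.25). Cells with Cxcl9 were deeper, with a median of 14000 UMIs against 9857, and a deeper cell more often shows a UMI. Within clusters the ratio was -0.07 in Tnc/Postn, -0.16 in Cyp2f2/Aldh1a1, -0.08 in Saa3/Cxcl9 and -0.94 in Pi16/C7 cells (27 positive cells), and 1.504 in Igfbp3/Inhba cells, where 7 cells were positive. The order of Cxcl9-positive and Cxcl9-negative cells was therefore not the same in all clusters. Nor was it the same under other settings, with a ratio of -0.049 with all barcodes, 0.021 at a clustering resolution of 0.5 and 0.050 between median cells.

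Chondrocyte-like cells of the auricular cartilage numbered 4302 in control and 2939 in ACD, and gave 1.95% and 1.71% of their UMIs as collagen (log2 ratio -0.20, -0.20 to -0.19). The median cell gave 1.75% and 1.52%. The leading chain was neither type I nor type II. Col8a1 was at 5940 in control and 6366 in ACD (0.10, 0.09 to 0.11), and took 30.4% and 37.3% of the collagen UMIs of these cells. The type VIII partner Col8a2 was far rarer, so that Col8a1 gave 36.6 UMIs per Col8a2 UMI in control and 42.8 in ACD.

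The cartilage fibril and its partners were close to equal in the libraries. Col2a1 was at 480.5 in control and 537 in ACD (0.16, 0.13 to 0.19). Col11a1 was at 670.4 and 654 (-0.04), and the ratio of Col11a1 to Col11a2 was 3.08 and 3.09. Of type IX, Col9a3 was at 643 and 663 (0.04) and Col9a2 at 190 and 221 (0.22), but Col9a1 was at 598 and 425 (-0.49, -0.53 to -0.46). The ratio of Col9a1 to Col9a2 was accordingly 3.15 (3.06 to 3.24) in control and 1.92 (1.87 to 1.99) in ACD, whereas that of Col9a3 to Col9a2 was 3.39 and 3.01. The sign of the Col9a3 value depended on the setting: it was negative under 7 alternatives, down to -0.33 without the cells marked by the doublet caller Scrublet.

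The chains of soft tissue were lower in ACD in chondrocyte-like cells as well. Col1a2 was at 3350 in control and 2110 in ACD (-0.67, -0.68 to -0.65), Col3a1 at 1795 and 1241 (-0.53) and Col1a1 at 880 and 604 (-0.54). The type VI chains Col6a1 and Col6a2 were at 1330.2 and 1013 (-0.39) and at 947 and 773 (-0.29). Col5a2 was at 563 and 541 (-0.06). In T/NK/ILC-like cells Col1a1 was at 413 in control and 93.8 in ACD (-2.14), and at 93.9 and 37.8 (-1.31) without the cells rich in fibroblast markers. With the T/NK/ILC-like level of each library subtracted, marker-rich cells included, the summed collagen level of chondrocyte-like cells differed by -0.085 instead of -0.20, and Col1a1 was on the other side of equal (0.13). Marker-rich cells held 60.3% of the subtracted collagen UMIs in control and 45.7% in ACD, so these values do not show the part of free RNA alone. A subtraction without those cells was not run.

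Of 34 members with enough UMIs in chondrocyte-like cells, 2 were lower by 1.5-fold, Col1a2 and Col6a6, where 0.216% of the 12494 genes were. Col6a6 was at 12.3 in control and 4.61 in ACD (-1.42, -1.72 to -1.13). Col10a1 was the 1 member of 34 that was higher, where 0.672% of all genes were. The median log2 ratio with 10 UMIs added was -0.15 over the members and -0.03 over all genes.

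**Figure D3:**
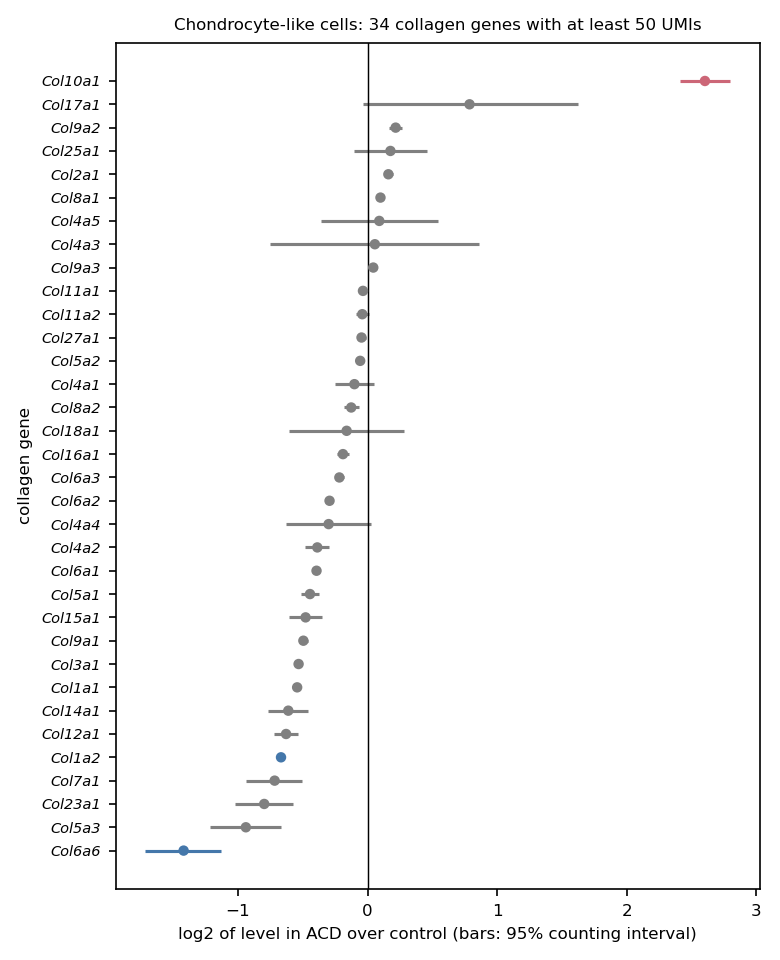
Log2 ratio of the level in ACD over control for the 34 collagen genes with at least 50 UMIs in chondrocyte-like cells (points), with 95% counting intervals (bars). Col10a1 stands apart at 2.60 (red), Col2a1, Col9a2, Col9a3, Col11a1 and Col8a1 lie near 0, and Col1a2 and Col6a6 are past 1.5-fold lower (blue).

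Col10a1 gave 265 UMIs in control and 1298 in ACD chondrocyte-like cells, levels of 7.75 and 47.1 (log2 ratio 2.60, 2.41 to 2.80). With only cells of at least 500 genes and under 5% mitochondrial UMIs the ratio of the class was 1.59, and without the cells marked by Scrublet it was 1.70, on another clustering in each case. The signal was concentrated in the mature-like Acan/Corin cells. There, 102 of 1151 control cells (8.86%) and 194 of 736 ACD cells (26.4%) had a Col10a1 UMI, and the level was 19.8 and 140.4 (2.83, 2.61 to 3.04). With each cell thinned to 2000 UMIs, the shares were 2.26% (1.48 to 3.30, Clopper-Pearson) and 9.65% (7.61 to 12.0). In T/NK/ILC-like cells, the background, the thinned shares were 0.249% and 0.211%, with 3538 and 5269 UMIs in the median cell, and the level was 0.817 and 0.584. In dFB-like cells there were 2 and 7 UMIs.

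The Col10a1 UMIs were unevenly spread over cells. In ACD a single Acan/Corin cell held 249 of them, and the 10 highest cells held 42.4% of the UMIs of the chondrocyte-like class, against 32.8% in control, where the highest cell held 15. Cytl1/Wif1 cells were at 4.93 and 13.9 (1.4998, 0.95 to 2.08). In Ucma/Smoc1 cells there were 6 and 2 UMIs, in Prg4/Scara3 cells 7 and 5, and in Gdf5/Slurp1 cells 0 of 487 control cells and 3 of 596 ACD cells had a UMI. Col10a1 lies at chr10:34389981-34397085 (plus strand, GRCm38) within the interval of Nt5dc1, which runs on the minus strand. Nt5dc1 was at 13.9 and 12.5 in the same cells (-0.15).

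The 250 bases upstream of the annotated start are shown for 3 members that the cartilage and fibroblast results turn on, from RefSeq on GRCm38.p6 and 5′ to 3′ on the strand of the gene: Col10a1 (chr10:34389731-34389980, plus strand), which differed most, Col8a1 (chr16:57754738-57754987, minus strand), which led in cartilage, and Col3a1 (chr1:45311288-45311537, plus strand), a leading chain of dFB-like cells. Capitals mark exact matches on either strand to the TATA box letters TATAAA, the CCAAT box or the GC box letters GGGCGG. A GC box on the other strand therefore reads CCGCCC.
Col10a1: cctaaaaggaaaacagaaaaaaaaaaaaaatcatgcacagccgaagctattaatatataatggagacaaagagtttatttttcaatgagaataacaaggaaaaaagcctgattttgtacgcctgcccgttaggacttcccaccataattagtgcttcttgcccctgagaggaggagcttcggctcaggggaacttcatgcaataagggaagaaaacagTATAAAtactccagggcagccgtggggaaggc
Col8a1: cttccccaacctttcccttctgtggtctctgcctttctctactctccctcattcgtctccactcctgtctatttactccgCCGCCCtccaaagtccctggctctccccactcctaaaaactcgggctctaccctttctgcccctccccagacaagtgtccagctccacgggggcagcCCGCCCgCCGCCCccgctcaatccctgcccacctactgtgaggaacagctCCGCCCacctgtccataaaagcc
Col3a1: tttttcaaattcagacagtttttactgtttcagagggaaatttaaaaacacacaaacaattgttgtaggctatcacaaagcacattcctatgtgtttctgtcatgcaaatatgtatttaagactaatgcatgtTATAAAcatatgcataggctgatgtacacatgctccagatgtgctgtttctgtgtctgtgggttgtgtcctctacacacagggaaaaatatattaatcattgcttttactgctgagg

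The Col10a1 window holds TATAAA with its first base at position -32, counted from -1 at the base before the start, and the Col3a1 window holds it at -117. The Col8a1 window holds GGGCGG on the other strand at -170, -73, -66 and -23 and no TATAAA. Promoters were found for 35 of the 44 members (38 windows). TATAAA occurred in 5 of the 38 windows (13.2%) and in 12.4% of all 32817 windows, CCAAT in 13 (34.2%) and 33.8%, and GGGCGG in 22 (57.9%) and 32.7%. A match is a description of these letters and not of a bound factor.

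Several members lie side by side in the genome. Col4a1 and Col4a2 start head to head on chromosome 8 with their annotated spans overlapping by 22 bases, and the starts of Col4a4 and Col4a3 on chromosome 1 are 71 bases apart. The UMI ratio of Col4a1 to Col4a2 was 1.33 in both libraries in pericyte-like cells, 1.37 and 1.65 in dFB-like cells, and 0.357 and 0.436 in chondrocyte-like cells. Neighbours thus kept different proportions in different classes.

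The cartilage clusters were more alike in collagen than the fibroblast clusters. Acan/Corin cells gave 1.97% of UMIs as collagen in control and 1.90% in ACD (-0.05), Ucma/Smoc1 cells 1.89% and 1.62% (-0.22), and Gdf5/Slurp1 cells 1.55% and 1.39% (-0.16). Cytl1/Wif1 cells gave 2.24% and 1.84% (-0.28), and Prg4/Scara3 cells 1.79% and 1.44% (-0.31). Weighted by the control shares of clusters, the class differed by -0.19, close to the -0.20 as measured. The perichondrial-like Angptl7/Cilp2 cells, outside the class, gave 1.95% and 1.77% (-0.14).

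In Acan/Corin cells Col8a1 was at 7257 in control and 7114 in ACD, Col1a2 at 1846 and 1300 (-0.51), Col6a1 at 1453 and 1330, Col9a3 at 1036 and 1270 (0.29), and Col6a2 at 1121 and 1100. Of 30 members, 1 was higher by 1.5-fold there, Col10a1, where 0.654% of all genes were, and none was lower, where 0.187% were. In Cytl1/Wif1 cells Col8a1 was at 8052 and 8286, Col1a2 at 3807 and 2177 (-0.81), Col3a1 at 1642 and 1034 (-0.67), Col6a1 at 1030 and 688 (-0.58), and Col9a3 at 904 and 734 (-0.30). There, 5 of 29 members were lower by 1.5-fold, where 0.47% of all genes were. They were Col1a2, Col3a1, Col1a1 (-0.998), Col9a1 (-0.68) and Col15a1 (-1.05).

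Prg4/Scara3 cells showed the same soft tissue chains. Col8a1 was at 5151 in control and 5589 in ACD, Col1a2 at 3131 and 1662 (-0.91), Col3a1 at 1818 and 1151 (-0.66), Col6a1 at 1241 and 871 (-0.51), and Col6a2 at 883 and 660 (-0.42). Here 8 of 26 members were lower by 1.5-fold, where 0.578% of all genes were, among them Col1a1, at 716 and 325 (-1.14), the 1 member past 2-fold, and Col9a1, at 660 and 382 (-0.79). In Ucma/Smoc1 cells Col1a2 was at 5031 and 3561, Col8a1 at 3396 and 3763, Col3a1 at 2587 and 2155, Col1a1 at 1815 and 1412, and Col6a1 at 1534 and 1220.0. These were the cartilage cells with most type I chains within the class.

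Gdf5/Slurp1 cells differed from the other cartilage clusters in Col8a1, which was at 3511 in control and 4634 in ACD (0.40, 0.36 to 0.44). Col1a2 was at 3546 and 2652, Col3a1 at 1931 and 1453, Col1a1 at 1623 and 1395, and Col6a1 at 1266 and 874. Col15a1 was past 2-fold lower, at 40.3 and 10.97 (-1.88, -2.41 to -1.36). In the perichondrial-like Angptl7/Cilp2 cells Col1a2 led, at 6533 and 5139, before Col8a1, at 4009 and 4454, Col1a1, at 2856 and 2313, Col3a1, at 1391 and 1691 (0.28), and Col6a1, at 1340 and 1090.

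Pericyte-like cells numbered 262 in control and 140 in ACD and gave 1.25% and 1.03% of UMIs as collagen (-0.28, -0.31 to -0.25). Their median depth was 4934 and 9580 UMIs. The vessel chain Col4a1 was at 1027 in control and 1051 in ACD (0.03, -0.07 to 0.14), and Col4a2 at 771 and 790 (0.03). Fibrillar chains were lower in ACD, Col3a1 at 2987 and 2201 (-0.44), Col1a2 at 2178 and 1663 (-0.39) and Col1a1 at 1278 and 1042 (-0.29), while Col6a1 was at 1240 and 1033 (-0.26). Of 21 members, 6 were lower by 1.5-fold, where 8.33% of all genes were, and none was higher, where 4.56% of all genes were. Past 2-fold were Col8a1, at 390 and 142 (-1.46, -1.70 to -1.23), and 3 cartilage-rich chains on few UMIs: Col27a1 on 63 and 15 (-1.96), Col11a1 on 65 and 13 (-2.21) and Col9a3 on 46 and 6 (-2.83).

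In smooth muscle-like cells (440 and 247) collagens took 1.33% of UMIs in control and 0.463% in ACD (-1.52, -1.55 to -1.49). Median depth was 4938 and 9929 UMIs. Col1a2 was at 3922 in control and 562 in ACD (-2.80), Col3a1 at 3001 and 443 (-2.76), Col1a1 at 2658 and 296 (-3.16) and Col5a1 at 115 and 31.4 (-1.88). By contrast Col4a1 was at 532 and 689 (0.37, 0.27 to 0.47), Col8a1 at 572 and 518 (-0.14), and Col18a1 at 229 and 470 (1.04, 0.90 to 1.18). Of 26 members, 11 were lower by 1.5-fold, where 6.71% of all genes were, and 1, Col18a1, was higher, where 3.79% of all genes were.

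Endothelial-like cells (172 and 137) gave 0.883% and 0.240% of UMIs as collagen (-1.88, -1.93 to -1.83). Col1a2 was at 2682 in control and 284 in ACD, Col1a1 at 1972 and 134, and Col3a1 at 1886 and 210.0, all over 8-fold lower. The chains that vessels themselves use were near equal: Col18a1 was at 363 and 330 (-0.14), Col4a1 at 288 and 299 (0.05), and Col8a1 at 297 and 360.3 (0.28). Of 18 members, 8 were lower by 1.5-fold and also by 2-fold, where 8.14% of all genes were lower by 1.5-fold, namely Col1a1, Col1a2, Col3a1, Col5a1 (-2.44), Col6a1 (-1.70), Col6a2 (-1.75), Col6a3 (-1.42) and Col16a1 (-1.39). Col15a1 was higher, at 22.1 and 46.9 (1.09, 0.44 to 1.77), 1 of 18 members where 6.55% of all genes were. The clusters of the class lay on opposite sides of equal: Col15a1 gave 17 and 5 UMIs (-1.67) in Ccl21a/Mmrn1 cells and 11 and 69 (0.56, -0.37 to 1.63) in Fabp4/Selp cells, so the value of the class carries the change in their shares. The class joined a lymphatic marker-rich Ccl21a/Mmrn1 cluster (152 and 101 cells) with 0.948% and 0.228%, and a Fabp4/Selp cluster (20 and 36 cells) with 0.261% and 0.265%.

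Keratinocyte-like cells (179 and 140) gave 0.299% and 0.121% of UMIs as collagen (-1.31, -1.38 to -1.24). The hemidesmosome collagen Col17a1 was at 263 in control and 399 in ACD (0.60, 0.45 to 0.76), but with all deposited barcodes the ratio was -0.14. The share of cells with a Col17a1 UMI after thinning to 2000 UMIs was 39.5% and 38.3%, against 0.125% and 0.0603% in T/NK/ILC-like cells. Col1a2 was at 854 and 107, Col3a1 at 538 and 69.5, Col1a1 at 543 and 48.3, and Col8a1 at 188 and 195 (0.05). Of 22 members, 11 were lower by 1.5-fold, where 3.02% of all genes were, and 2 were higher, Col17a1 and Col9a3, where 3.31% of all genes were. Past 2-fold lower, beside the type I and III chains, were Col4a1, at 46.8 and 12.2 (-1.94), Col6a1 (-1.36) and Col5a1 (-2.37). Col9a3 was at 15.2 and 37.7, on 38 and 71 UMIs.

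Glia-like cells (356 and 370) gave 1.03% and 0.775% of UMIs as collagen (-0.41, -0.45 to -0.38). Col1a2 was at 2736 in control and 1636 in ACD (-0.74), Col3a1 at 2316 and 1545 (-0.58), Col1a1 at 1357 and 972 (-0.48), Col8a1 at 606 and 445 (-0.44) and Col4a1 at 406 and 407 (0.01). Of 29 members, 2 were lower by 1.5-fold, Col1a2 and Col24a1, where 1.96% of all genes were, and 2 were higher, Col18a1 (0.70) and Col11a2 (0.88), where 3.1% of all genes were. Col28a1, the member most confined to this class, was at 116 and 157 in glia-like cells (0.44, 0.16 to 0.73).

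Fibroblast transcripts were measured beside these results. Cells with UMIs of at least 5 of the 8 dFB markers (Pdgfra, Dpt, Lum, Dcn, Mfap5, Clec3b, Pi16 and Ly6a) were counted in each class. Among smooth muscle-like cells they were 47 of 440 in control, with 73.0% of the collagen UMIs of the class, and 12 of 247 in ACD, with 20.3%. Scrublet, which was not used to remove cells in the values above, marked 40 of those 47 and 5 of those 12. In endothelial-like cells they were 17 of 172 (78.6% of collagen UMIs, 8 marked) and 5 of 137 (19.3%). In keratinocyte-like cells 5 of 179 cells held 57.3% of the collagen UMIs in control and 7 of 140 held 10.5% in ACD. The shares in pericyte-like cells were 33.7% and 21.6%, and in glia-like cells 42.3% and 45.4%. The summed level of the 8 markers ranged over these 5 classes from 935 to 4694 in control and from 1161 to 3703 in ACD, with none of the 8 at 0 in any class. In smooth muscle-like cells it was 4694 and 1499, and 7 of the 8 markers were lower by 1.5-fold. In keratinocyte-like cells it was 935 and 1161, higher in ACD while collagen was lower.

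**Figure D4:**
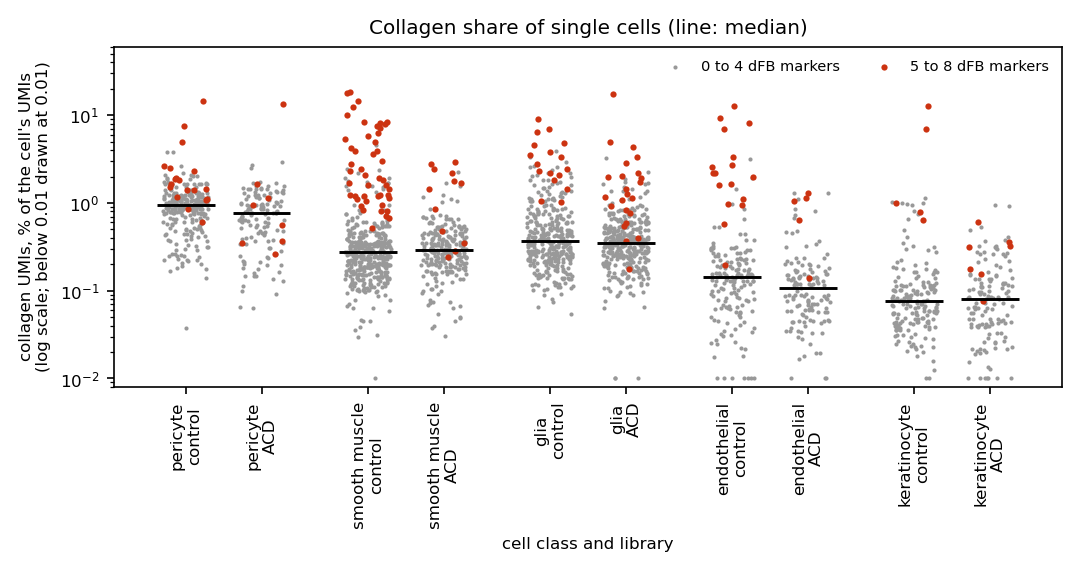
Collagen UMIs as a percentage of a cell's UMIs (log scale, values below 0.01 drawn at 0.01) for every pericyte-, smooth muscle-, glia-, endothelial- and keratinocyte-like cell, by library. Red points are cells with 5 to 8 dFB markers, grey points the others, and black lines medians. Red points fill the top of the control smooth muscle-like column, while the medians there are 0.277% in control and 0.293% in ACD.

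Without those cells the classes differed far less. In the median cell they were deeper than the others in each class and library except ACD keratinocyte-like cells (11551 against 13813 UMIs). In control smooth muscle-like cells the medians were 11469 and 4789. A deeper cell more often shows 5 markers, so the selection depends on depth. The smooth muscle-like cells left in ACD had a median of 9622. Collagens took 0.454% of UMIs in control and 0.396% in ACD in smooth muscle-like cells (-0.20, -0.24 to -0.16), 0.225% and 0.204% in endothelial-like cells (-0.14), and 0.133% and 0.114% in keratinocyte-like cells (-0.22). Pericyte-like cells gave 0.956% and 0.879% (-0.12) and glia-like cells 0.678% and 0.504% (-0.43), so the difference in glia-like cells was as large without them. Without the cells that Scrublet marked, however, glia-like cells differed by -0.04, pericyte-like cells by 0.12 and smooth muscle-like cells by 0.18. The median cell, all cells included, gave 0.277% and 0.293% in smooth muscle-like, 0.145% and 0.108% in endothelial-like, and 0.0757% and 0.0815% in keratinocyte-like cells. In T/NK/ILC-like cells the same selection held 60.3% and 45.7% of collagen UMIs.

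**Figure D5:**
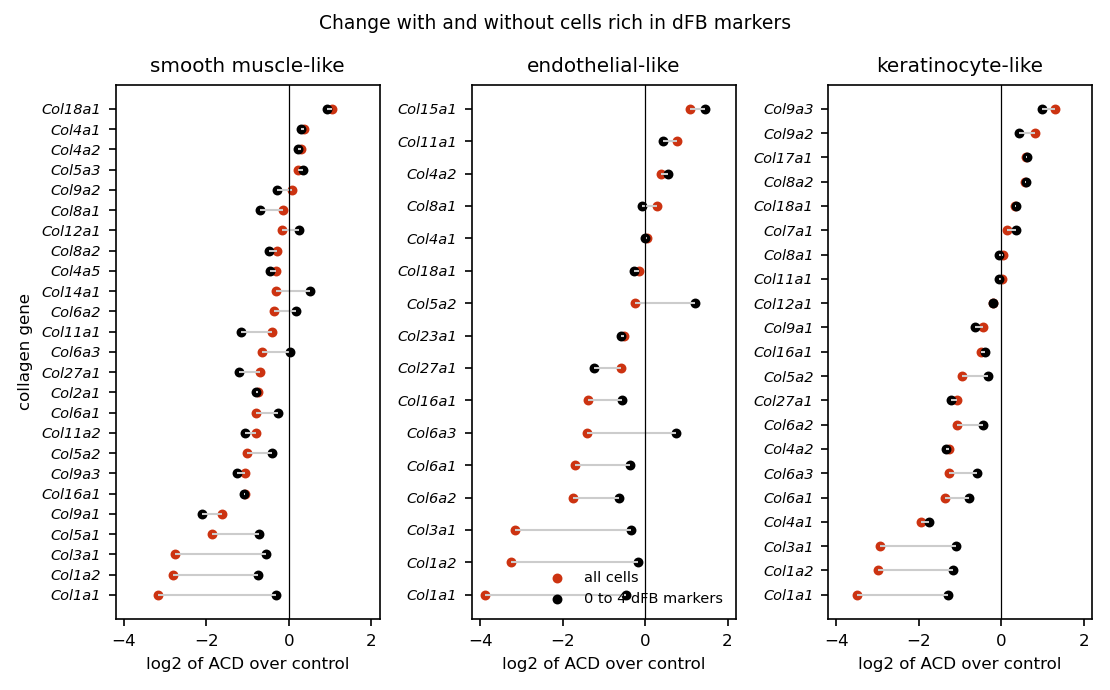
Log2 ratio of ACD over control for collagen genes in smooth muscle-, endothelial- and keratinocyte-like cells, in all cells (red) and without cells that carry 5 or more dFB markers (black), joined by grey lines. Col1a1, Col1a2 and Col3a1 move from about -3 towards 0, Col18a1 in smooth muscle-like cells and Col17a1 in keratinocyte-like cells stay near their values, and Col6a3 in endothelial-like cells crosses 0.

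Members differed in how far they depended on those cells. In smooth muscle-like cells without those cells Col18a1 was at 257 in control and 489 in ACD (0.93, 0.78 to 1.07), Col4a1 at 580.4 and 706 (0.28) and Col4a2 at 412 and 481 (0.22). Col8a1 was at 602 and 372 (-0.69, -0.82 to -0.57), against -0.14 with all cells. Col1a1 was at 263 and 211 (-0.32), against -3.16 with all cells. Of 25 members, 9 were lower by 1.5-fold, where 6.59% of all genes were, and 1 was higher (Col18a1), where 3.9% were. Past 2-fold lower were cartilage-rich chains, Col9a1 at 65.4 and 15.2 (-2.10), Col9a3 (-1.25) and Col27a1 (-1.22). These chains are highest in chondrocyte-like cells, which numbered 4302 in control and 2939 in ACD, and the part of free cartilage RNA in their levels was not tested.

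In endothelial-like cells without the marker-rich cells, 1 of 16 members was lower by 1.5-fold (Col27a1, -1.23), where 9.06% of all genes were. Higher were 2 of 16, where 7.17% were: Col15a1, at 16.9 and 46.7 (1.46, 0.70 to 2.30), and Col5a2, at 26.3 and 61.3 (1.22, 0.60 to 1.89). In Ccl21a/Mmrn1 cells, the larger cluster, with all cells included, Col5a2 was at 94.2 and 72.9 (-0.37) and Col15a1 at 14.8 and 4.67, both on the other side of equal. Over the whole class with all cells included Col5a2 was also on that side, at 86.9 and 73.6 (-0.24), so its side changed with the removal of cells. Col8a1 was at 334 and 319 (-0.06) in endothelial-like cells without the marker-rich cells, against 0.28 with all cells. In keratinocyte-like cells 7 of 21 members were lower, where 2.73% of all genes were, among them Col1a2 (-1.17), Col1a1 (-1.28) and Col4a1, at 41.1 and 12.3 (-1.74). Higher were 2 of 21, where 3.57% were: Col17a1, at 266 and 411 (0.63, 0.47 to 0.78), and Col9a3, at 15.8 and 31.3 (0.99).

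In pericyte-like cells without the marker-rich cells, 4 of 20 members were lower, where 7.75% of all genes were. They were the same 4 as past 2-fold in all cells, with Col8a1 at 338 and 130.1 (-1.38, -1.64 to -1.12). All 4 are cartilage-rich, and a selection by fibroblast markers does not take out cartilage RNA, whose part was not tested. Col1a1 was at 516 and 594 (0.20), on the other side of equal from its value over all cells, whereas Col4a1, at 1067 and 1115 (0.06), stayed. In glia-like cells 6 of 28 members were lower, where 2.51% were, with Col3a1 at 1069 and 559.9 (-0.93), Col1a1 at 562 and 342 (-0.72) and Col8a1 at 681 and 434 (-0.65). Without the cells that Scrublet marked, in contrast, Col1a2 in glia-like cells was on the other side of equal (0.09).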

How the data were processed

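The authors captured cells with 10x Chromium 3′ v2 chemistry, sequenced them on a NovaSeq6000, and aligned and counted reads with Cell Ranger (3.1.0 per the file headers, with an earlier release named in the methods) on mm10. They deposited 1 matrix per library of UMI counts per gene and barcode, with no normalization. All later values were computed here from those counts.

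The work ran in Python 3.11.15. Matrices and intervals used numpy 2.4.6, pandas 2.3.3 and scipy 1.17.1, clustering used scanpy 1.11.5 with leidenalg 0.10.2 on igraph 0.11.9, and plots used matplotlib 3.10.9. In the methods the sign before 25000 UMIs makes it a minimum, but here it was taken for a maximum. These limits left more cells in both libraries than the study states that it used. Counts per cell were scaled and log-transformed, and 2000 variable genes without collagen or collagen-pathway genes gave 30 components, a graph of 20 neighbours and Leiden clusters at resolution 1, without batch correction. Both libraries were clustered together. A cluster was named when at least 3 markers of a class were found in 10% of its cells and led it. Where 6 or more markers of a second class exceeded a fold of 2, a sub-cluster was treated as mixed and set apart. Both limits were chosen with the clusters already known. Doublets were not removed in the values reported. Scrublet, run through scanpy, marked 583 control cells (4.77%) and 412 ACD cells (3.53%).

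Level intervals are exact Poisson intervals and ratio intervals exact conditional binomial intervals, at 95%. There are no replicates, so no test was possible. Code for the intervals was tested on simulated Poisson counts, the model that the intervals assume. That check of the code does not cover UMIs clumped in single cells. In dFB-like and chondrocyte-like cells the 10 members with the highest mean level and all past 1.5-fold were named, and elsewhere the 5 highest and all past 2-fold. Members behind a count of 5 or fewer, and a few others, were named after their values had been seen. The members and lists were chosen with earlier results of these data known. Positions come from GENCODE M21 on GRCm38. Alternatives were the cell filter, doublet calls removed, resolutions 0.5 and 2, collagen genes kept in the clustering, the mean over cells, size factors, background subtracted, minimum counts of 20 and an added count of 1. The median over cells, the removal of cells with at least 5 dFB markers and the control mix of clusters were added after the data had been seen.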

Additional observations from a re-analysis of the deposited data

Results flagged for a closer look

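Col9a3, a type IX chain of cartilage, was the 1 member past 1.5-fold in opposite directions in different classes, among the 7 classes compared in all their cells. Its log2 ratio was -2.83 in pericyte-like cells and -1.06 in smooth muscle-like cells, but 1.31 in keratinocyte-like cells. The difference between these classes was not tested, since each class has 1 library per condition. The ratios rest on 46 and 6, 171 and 81, and 38 and 71 UMIs in control and ACD, while chondrocyte-like cells held 90.4% of all Col9a3 UMIs.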

How the results depend on the processing

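Leaving out a replicate was not possible, since each group has 1 library. No paired analysis was possible because each condition has 1 library. With the stricter cell filter (at least 500 genes, under 5% mitochondrial UMIs) pericyte-like cells joined the smooth muscle-like cells, so they gave no value. The cause of the shifts below was not tested. The subtracted background included the marker-rich T/NK/ILC-like cells.

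The log2 ratio of summed collagen in dFB-like cells, -0.62 as reported, was -0.68 with all barcodes, -0.51 with the stricter filter, -0.62 without Scrublet calls, -0.68 at resolution 0.5, -0.67 at resolution 2, -0.60 with collagen genes kept in the clustering, -0.58 as a mean over cells, -0.59 with size factors, -0.59 with background subtracted, -0.70 as a median over cells and 0.025 at the control mix of clusters, where Col1a1 was 0.076. In chondrocyte-like cells (-0.20) it was -0.19 with all barcodes, -0.21 with the stricter filter, -0.22 without Scrublet calls, -0.21 at resolution 2, -0.21 as a mean, -0.14 with size factors, -0.085 with background subtracted, -0.21 as a median and -0.19 at the control mix. In pericyte-like cells (-0.28) it was -0.11 with all barcodes, 0.12 without Scrublet calls, -0.42 at resolution 2, -0.22 with size factors, -0.10 with background subtracted, -0.32 as a median and -0.12 without marker-rich cells.

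In smooth muscle-like cells (-1.52) it was -1.38 with all barcodes, -1.02 with the stricter filter, 0.18 without Scrublet calls, -1.47 at resolution 0.5, -1.26 at resolution 2, -0.94 as a mean, -1.43 with size factors, 0.079 as a median and -0.20 without marker-rich cells. In glia-like cells (-0.41) it was -0.50 with all barcodes, -0.65 with the stricter filter, -0.039 without Scrublet calls, -0.33 as a mean, -0.21 with background subtracted and -0.068 as a median. In endothelial-like cells (-1.88) it was -2.02 with the stricter filter, -0.10 without Scrublet calls, -1.49 as a mean, -1.98 with background subtracted, -0.42 as a median and -0.14 without marker-rich cells. In keratinocyte-like cells (-1.31) it was -2.06 with all barcodes, -1.16 with the stricter filter, -0.99 as a mean, -1.23 with size factors, -0.68 with background subtracted, 0.11 as a median and -0.22 without marker-rich cells.

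Among single-member values past 1.5-fold, 8 changed sides. Without Scrublet calls these were Col1a1 in smooth muscle-like cells (0.13), Col1a2 in glia-like cells (0.093), and Col6a2 (0.30), Col6a3 (0.70) and Col16a1 (0.85) in endothelial-like cells. The others were Col6a3 in endothelial-like cells without marker-rich cells (0.74), Col17a1 in keratinocyte-like cells with all barcodes (-0.14) and Col1a1 in dFB-like cells at the control mix, as above. Among values within 1.5-fold of equal, 52 changed sides, over 24 pairs of member and class or cluster. Of the other values of single members and of clusters 623 stayed within their counting interval and 419 did not.

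The count of members lower in dFB-like cells (4) was 2 with the stricter filter, collagen kept, the mean, size factors or background subtracted. It was 7 with 1 UMI added and 0 at the control mix, where Saa3/Cxcl9 had a weight of 0.571%. The count in chondrocyte-like cells (2) was 1 with all barcodes, resolution 0.5, collagen kept, the mean or the control mix. It was 0 with background subtracted and 7 with 1 UMI added. The Cxcl9 ratio (-0.25) was -0.049 with all barcodes, -0.41 with the stricter filter, -0.20 without Scrublet calls, 0.021 at resolution 0.5, -0.21 at resolution 2 or with collagen kept, -0.12 as a mean, -0.16 with size factors and 0.050 as a median. Col10a1 in chondrocyte-like cells lay between 1.59 and 2.75, Col9a1 there between -0.76 and -0.44, and Col18a1 in smooth muscle-like cells between 0.74 and 1.12.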
